A study of Homo sapiens with 12 samples.

Results

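The 10 genes described here encode the enzymes and enhancers that finish fibrillar collagen: the lysyl oxidases LOX and LOXL1 to LOXL4, the lysyl hydroxylases PLOD1 to PLOD3, and the procollagen C-proteinase enhancers PCOLCE and PCOLCE2. They were taken by gene symbol, and all 10 were found among the 28901 named genes of the count table. Their mRNA was measured by RNA-seq in ASC52telo cells, human adipose-derived mesenchymal stem cells immortalized with hTERT and differentiated into adipocytes until day 14. Cells carried a lentiviral scramble shRNA (scramble) or an shRNA against linc-ADAIN (linc-ADAIN KD), a long intergenic non-coding RNA, and were harvested either untreated or once LPS (100 ng/mL) had been present for 4 h, which gives 4 groups of 3 libraries. Every group thus shared the immortalized line, the lentiviral shRNA vector, the sorting of transduced cells and the differentiation protocol. The study used 1 shRNA sequence against linc-ADAIN in these libraries and 1 experiment in triplicate, so p-values measure the spread between the libraries of that experiment. Since linc-ADAIN was not analysed here, the knockdown was not checked.

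Collagen chains are modified in the endoplasmic reticulum, where lysyl hydroxylases add hydroxyl groups to lysines. After secretion the C-terminal propeptide is removed by BMP1-type proteinases, a step that PCOLCE proteins speed up. Lysyl oxidases then oxidize lysines and hydroxylysines in collagen and elastin, and the aldehydes formed react into the cross-links that make the matrix stiff and insoluble. In adipose tissue this matrix surrounds each adipocyte and limits how far the cell can expand.

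Depth was 28.4 to 53.8 M counts (M, units of 1e6) on named genes in a library. Defining adipocyte genes (FABP4, ADIPOQ, PLIN1) were abundant, while LPL and LEP, 2 of the 9 adipocyte markers, were at or near 0, with at most 82 counts in a library. The 9 markers summed to 3140 to 4350 CPM (counts per 1e6 counts of a library, after TMM scaling) in scramble and to 629 to 1830 CPM in linc-ADAIN KD. With LPS they summed to 3650 to 4210 CPM in scramble and 510 to 1180 CPM in KD. Replicate 3 was the lowest of both KD groups. The leukocyte markers PTPRC and ITGAM and the endothelial markers CDH5 and CLDN5 were at or near 0, with at most 12 counts in a library. Other genes of these 2 lists of 6 were detected: in scramble without LPS CD68 had 2516 to 2959 counts, VWF 438 to 518, TEK 374 to 518 and PECAM1 363 to 396. Summed, the leukocyte list measured 52.9 to 58.8 CPM in scramble and 31.6 to 37.3 CPM in KD (with LPS 56.3 to 69.1 and 27.2 to 32.2). The endothelial list measured 23.6 to 27.1 and 11.8 to 12.3 CPM (with LPS 15.3 to 17.0 and 8.45 to 13.2). As these are bulk samples, fewer cells of a type and less RNA per cell cannot be told apart. The 8 LPS check genes, such as CXCL8, IL6 and CCL20, all rose with LPS under both shRNAs.

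The 2 pairs of genes whose levels moved together most closely, PCOLCE with PCOLCE2 and LOXL3 with LOXL4, are shown here by the DNA upstream of their RefSeq starts. RefSeq promoter entries (GRCh38.p14) matched 9 of the 10 genes. Each stretch is the longest one, within the 250 bases before the start, outside exons of protein-coding genes in GENCODE release 44, written 5′ to 3′ on the gene's strand. Capitals mark CACCC boxes, the letters CACCC or their reverse complement GGGTG, which are bound by members of the KLF and SP families.
PCOLCE: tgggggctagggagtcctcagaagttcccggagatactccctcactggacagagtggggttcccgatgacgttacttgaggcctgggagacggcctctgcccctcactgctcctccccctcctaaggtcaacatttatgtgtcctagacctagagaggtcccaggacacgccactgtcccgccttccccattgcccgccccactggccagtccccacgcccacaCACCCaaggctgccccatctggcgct
PCOLCE2: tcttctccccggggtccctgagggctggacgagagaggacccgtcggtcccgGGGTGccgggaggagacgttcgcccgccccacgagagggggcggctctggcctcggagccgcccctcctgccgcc
LOXL3: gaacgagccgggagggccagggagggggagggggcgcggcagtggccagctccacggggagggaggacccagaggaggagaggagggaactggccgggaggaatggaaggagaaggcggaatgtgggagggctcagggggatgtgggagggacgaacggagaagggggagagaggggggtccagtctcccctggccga
LOXL4: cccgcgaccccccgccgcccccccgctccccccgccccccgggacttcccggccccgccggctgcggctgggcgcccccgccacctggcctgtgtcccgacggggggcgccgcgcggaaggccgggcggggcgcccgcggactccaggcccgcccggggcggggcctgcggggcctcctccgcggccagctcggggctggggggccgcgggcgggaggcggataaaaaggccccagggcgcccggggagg
These stretches lie at chr7:100602113-100602362 on the plus strand, and at chr3:142889207-142889333, chr2:74553962-74554159 and chr10:98268195-98268444 on the minus strand. A CACCC box stood once before PCOLCE and once before PCOLCE2, and none stood before LOXL3 or LOXL4. Over the full 250 bases, 3 of the 9 matched genes held one, against 53.7% of 27305 RefSeq promoters, so these letters are common. The core of the hypoxia response element, ACGTG on either strand, was found 4 times before LOX and 2 times before PLOD2. Both are known hypoxia-responsive genes, and no other of the 9 held it. The letters thus stood before 2 of the 9, close to the share of 18.7% over all promoters. The AP-1 letters TGANTCA (6.6% of all promoters) and TATAAA (11.1%) were found before none of the 9, searched on both strands, while CCAAT (33.0%) was found before LOX and PLOD2. The LOXL4 window was the richest in G and C of the 9, at 86.4%, against a median of 58.0% over all promoters. The RefSeq starts used here differ from the GENCODE gene starts. By the GENCODE gene spans given below, only the windows of PCOLCE and LOXL4 lie wholly before the gene. Those of LOX and PCOLCE2 reach into it, and those of LOXL1, LOXL3, PLOD1, PLOD2 and PLOD3 lie inside it. Of the ACGTG cores of LOX, only that starting at base -185 lies before the GENCODE gene. These matches describe letters only.

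Levels per kb of transcript put PCOLCE first in all 4 groups and LOXL4 last. Per-kb levels are CPM divided by the length of the MANE Select transcript. In scramble the order was PCOLCE at 287 ± 19.5 (SD, n = 3), PLOD2 at 189 ± 10.3, PLOD1 at 99.3 ± 2.85, PCOLCE2 at 88.1 ± 13.1, LOX at 63.7 ± 3.84 and LOXL2 at 62.2 ± 1.82 CPM per kb. PLOD3 at 44.1 ± 4.55, LOXL1 at 33.8 ± 1.02, LOXL3 at 5.26 ± 0.342 and LOXL4 at 2.05 ± 0.647 CPM per kb followed. Of the neighbours in this order, PLOD1 and PCOLCE2 overlapped in their ranges, and so did LOX and LOXL2, and the other neighbours did not overlap. The highest level was 140 times the lowest. In linc-ADAIN KD the order was the same apart from PCOLCE2, which went from the fourth place to the eighth at 9.21 ± 2.23 CPM per kb, and LOX and LOXL2, which stayed within each other's range. There PCOLCE2 overlapped with LOXL3, the next gene down. The oxidases with abundant mRNA in these cells were thus LOX, LOXL2 and LOXL1, and the hydroxylase with the most was PLOD2.

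**Figure D1:**
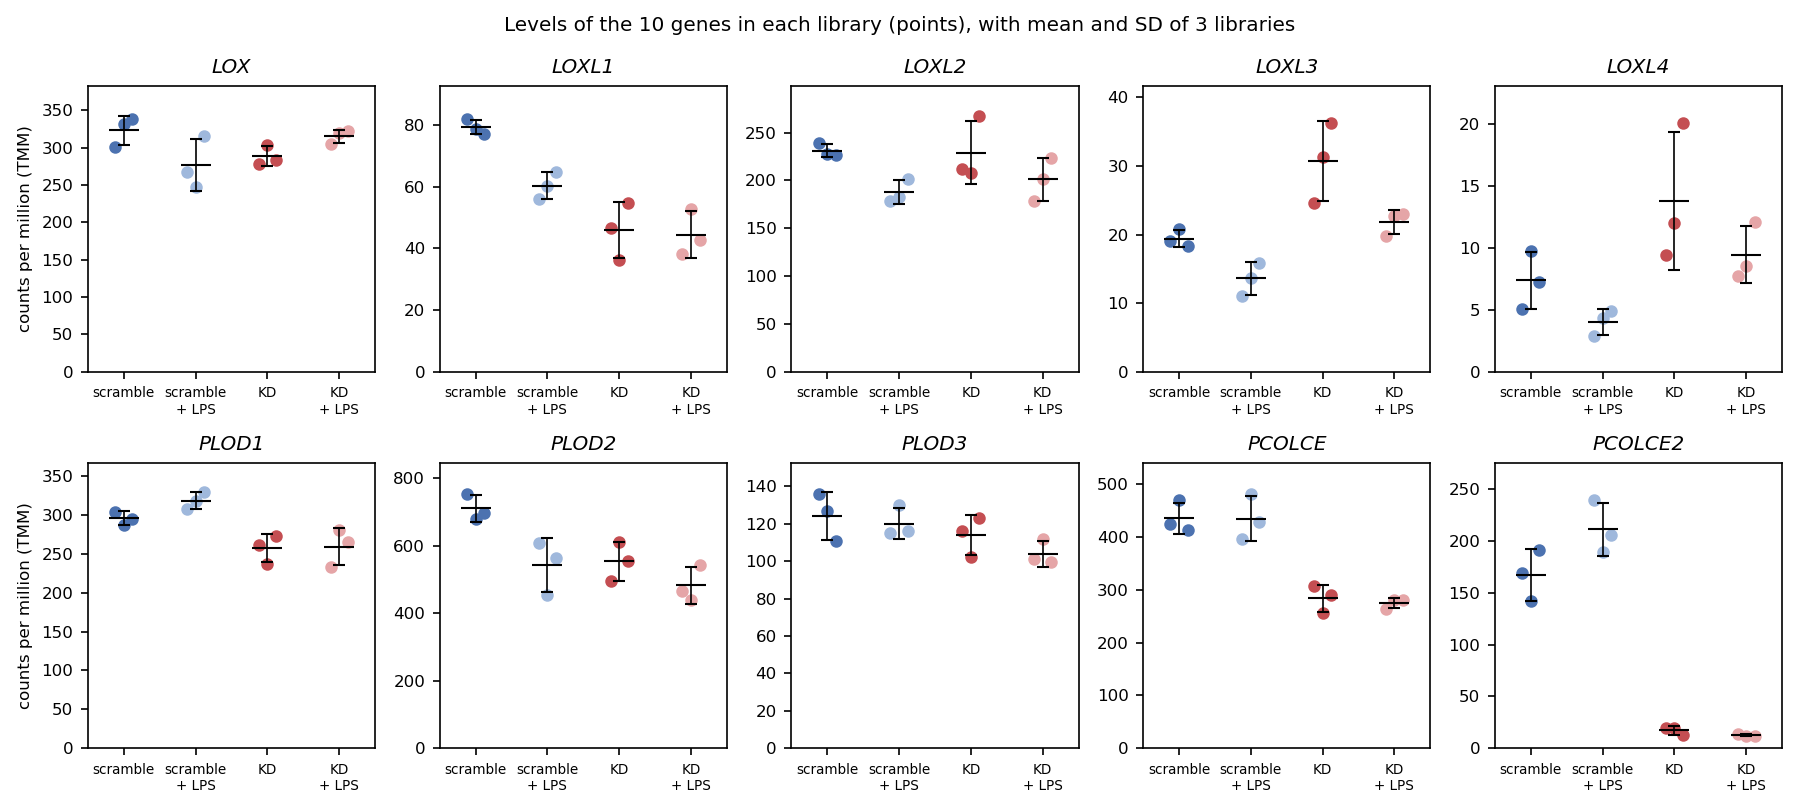
Each panel plots 1 gene, with its level in CPM (TMM-scaled, axis from 0) on the y axis and the 4 groups on the x axis. Points are the libraries, and the bars give the mean and SD of 3 libraries. PCOLCE2 lies between 142 and 239 CPM in the 6 scramble libraries and between 12.1 and 20 CPM in the 6 KD libraries.

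To ask how linc-ADAIN KD changes these genes in unstimulated adipocytes, the 3 KD and 3 scramble libraries without LPS were compared by edgeR's quasi-likelihood test, with p-values adjusted by Benjamini-Hochberg over all 16217 genes tested. LOXL3 and LOXL4 rose, LOXL1, PLOD2, PCOLCE and PCOLCE2 fell, and the other 4 did not pass an adjusted p of 0.05. Over all genes tested, 12.1% rose and 15.1% fell by the same rule. The median log2 fold change was -0.179 over the 10 genes and 0.0243 over all genes. PCOLCE2 was the only one of the 10 to change at least 2-fold, a rule met upward by 4.28% and downward by 3.49% of all genes. The groups did not overlap for 6 of the 10 genes, against 42.5% of all genes.

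PCOLCE2, the other known C-proteinase enhancer beside PCOLCE, lies at chr3:142815922-142889206 on the minus strand (GRCh38, 9 exons). It stood at 169, 142 and 191 CPM in the scramble libraries and at 20.0, 19.8 and 12.6 CPM in the KD libraries, 7441 to 8892 against 510 to 1068 counts. All KD libraries were far below all scramble libraries. It fell by 3.25 on the log2 scale (SE 0.17, adjusted p = 1.3e-07), a 9.53-fold lower level. With LPS the level was 239, 189 and 206 CPM in scramble and 13.6, 12.1 and 12.1 CPM in KD. There it fell by 4.07 (SE 0.11, adjusted p = 1e-10), a 16.8-fold lower level. Counted from the lowest log2 fold change, it held place 311 of 16217 genes without LPS and place 234 of 15981 with LPS. Leaving out any 1 library gave log2 fold changes of -3.36 to -3.06 without LPS and -4.15 to -3.97 with LPS.

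PCOLCE, the first enhancer and the most abundant of the 10 mRNAs per kb, lies at chr7:100602363-100608175 on the plus strand. Its levels were 424, 469 and 413 CPM in scramble and 306, 256 and 290 CPM in KD, without overlap. It fell by 0.61 (SE 0.086, adjusted p = 0.00024) without LPS and by 0.66 (SE 0.081, adjusted p = 3.6e-05) with LPS. In the latter comparison the levels were 395, 480 and 428 CPM in scramble and 264, 280 and 281 CPM in KD. Both enhancers were thus lower in KD, but unequally. Per kb, PCOLCE2 made up 24.1%, 19.4% and 27.0% of the summed enhancer mRNA in scramble and 4.97%, 5.83% and 3.35% in KD. With LPS the share was 23.9% to 32.6% in scramble and 3.33% to 3.94% in KD. Each of these differences had a two-sided exact permutation p of 0.1, the smallest that 3 against 3 allows, or 0.19 adjusted over the 40 family shares and sums tested. The summed enhancer mRNA went from 375 ± 7.8 to 196 ± 16.5 CPM per kb without LPS (SD, n = 3), with the same exact permutation p.

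**Figure D2:**
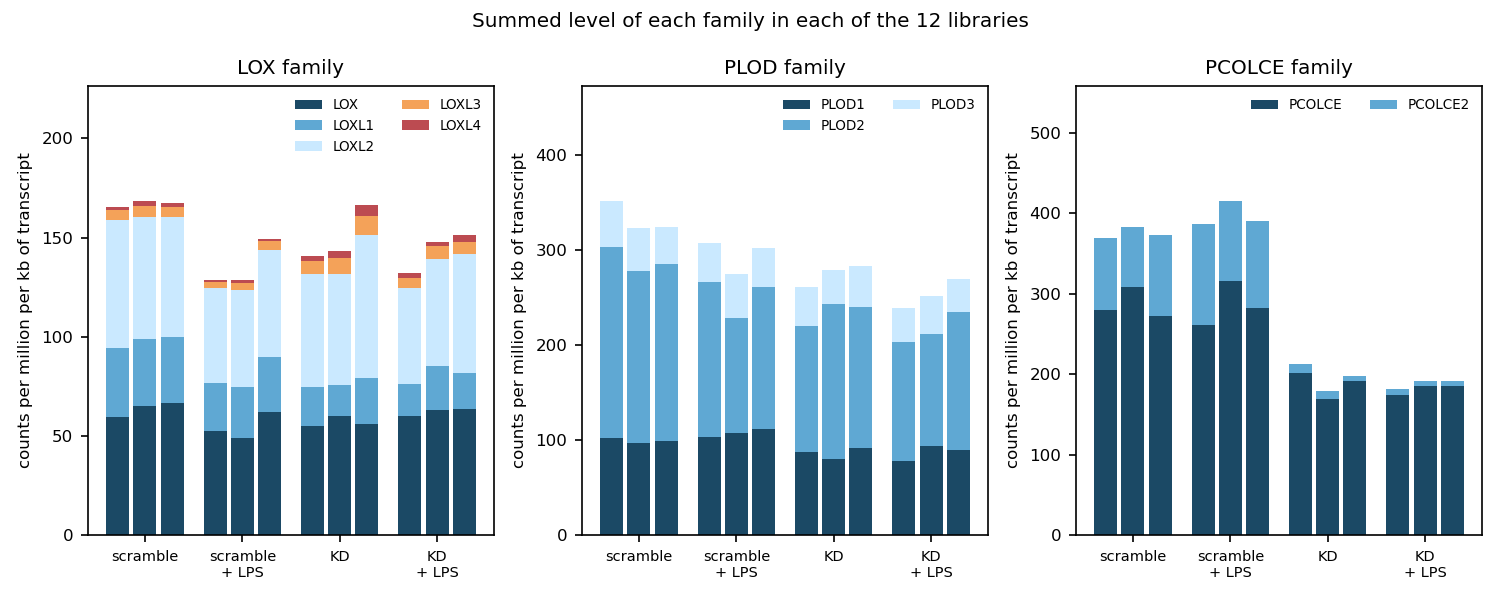
Stacked bars give, for each of the 12 libraries, the summed level of a family in CPM per kb of transcript (axis from 0), with 1 colour per gene. The PCOLCE family sums to 369 to 384 in scramble and 179 to 212 in KD, with the PCOLCE2 portion almost gone, while the LOX family sums to 165 to 168 in scramble and 141 to 167 in KD.

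The genes next to PCOLCE2 on chromosome 3 fell by far less or did not pass the test (these neighbours were looked up after its values had been seen). TRPC1, a cation channel gene that ends 8.03 kb away, had a log2 fold change of 0.21 (SE 0.143, adjusted p = 0.319) without LPS and -0.07 (SE 0.146) with LPS. U2SURP on the other side, a splicing gene, stood at -0.13 (SE 0.0698, adjusted p = 0.182) and -0.25 (SE 0.0928). Among the 6 nearest genes averaging 50 counts or more in a library, SLC9A9 fell by 0.65 (SE 0.147, adjusted p = 0.00628) without LPS and by 0.49 with LPS, and ATR fell by 0.60 (adjusted p = 0.000646) with LPS, after -0.25 (adjusted p = 0.0884) without. PLOD2, 3.15 Mb further along the same chromosome, also fell without LPS, by a much smaller amount.

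**Figure D3:**
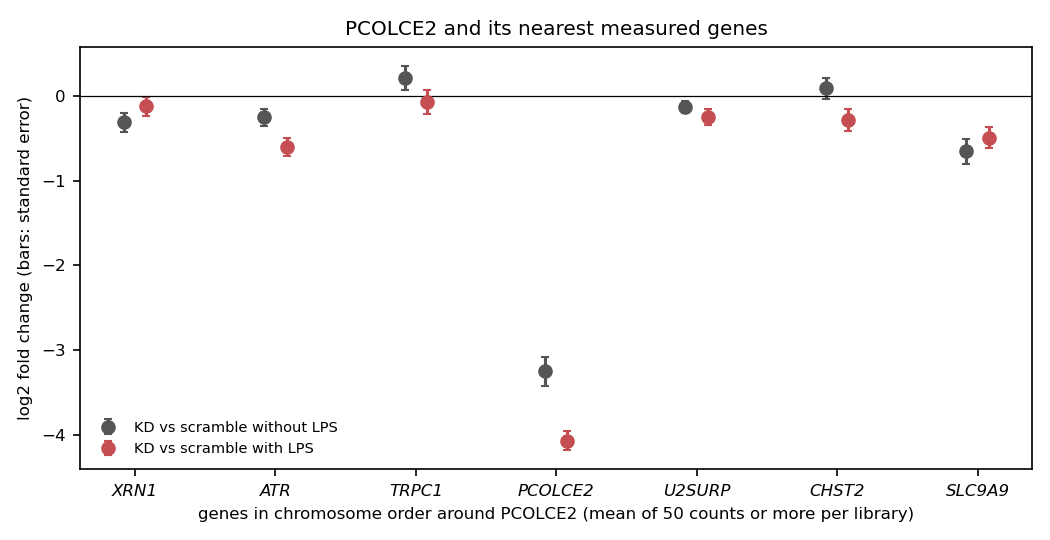
The log2 fold change of linc-ADAIN KD against scramble (y axis, bars are standard errors) is plotted for PCOLCE2 and the 3 nearest measured genes on each side in chromosome order (x axis), without LPS in grey and with LPS in red. PCOLCE2 lies at -3.25 and -4.07, and the 6 neighbours lie between -0.65 and 0.21.

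Of the lysyl oxidases, LOX, the founding enzyme that acts on collagen and elastin (chr5:122063195-122078413, minus strand), did not change by the test. Its levels were 301, 331 and 338 CPM in scramble and 278, 304 and 284 CPM in KD, and the groups overlapped. The log2 fold change was -0.16 (95% interval -0.33 to 0.01, adjusted p = 0.15). LOXL2, which cross-links basement membrane collagen among others (chr8:23296897-23425328, minus strand), stood at 239, 228 and 227 CPM in scramble and at 212, 208 and 267 CPM in KD. Its log2 fold change of -0.01 (95% interval -0.22 to 0.20, adjusted p = 0.95) turned to 0.094 when libraries were scaled by size only. These intervals do not extend to a 2-fold change in either gene.

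LOXL1, the oxidase most tied to elastic fibres (chr15:73925989-73952137, plus strand), was lower in KD. It measured 82.0, 78.8 and 77.3 CPM in scramble and 46.8, 36.4 and 54.7 CPM in KD, without overlap. It fell by 0.79 (SE 0.12, adjusted p = 0.00054). With LPS it measured 56.2, 60.2 and 64.8 CPM in scramble and 38.1, 52.8 and 42.7 CPM in KD, and fell by 0.44 (SE 0.12, adjusted p = 0.013). This second call was lost without scramble LPS replicate 3 (log2 fold change -0.38, adjusted p = 0.07) or without KD LPS replicate 1 (-0.34, adjusted p = 0.063).

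LOXL3 and LOXL4, the 2 least abundant oxidases, rose. LOXL3, an oxidase with scavenger receptor domains (chr2:74532258-74555690, minus strand), measured 19.1, 20.8 and 18.3 CPM in scramble and 24.6, 31.3 and 36.3 CPM in KD. The log2 fold change was 0.67 (SE 0.13, adjusted p = 0.0029), and it was 0.69 (SE 0.15, adjusted p = 0.003) with LPS, where the levels were 11.1, 13.7 and 15.8 CPM against 19.8, 22.7 and 23.0 CPM. The groups were separate in both comparisons. DOK1 and HTRA2 overlap LOXL3 in the annotation and rose too, by 0.83 and 0.39 on the log2 scale without LPS, and whether the counting used strand is not given in the sources used here. The part of that overlap in the result was not tested.

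LOXL4, a close relative of LOXL3 in domain make-up (chr10:98247690-98268194, minus strand), measured 5.09, 9.74 and 7.28 CPM in scramble and 9.42, 12 and 20.1 CPM in KD. The groups overlapped slightly, and the highest library was KD replicate 3, the one with the least adipocyte marker mRNA of those without LPS. The log2 fold change was 0.91 (SE 0.28, adjusted p = 0.029). Without KD replicate 3 it was 0.55 (adjusted p = 0.14), without scramble replicate 1 it was 0.71 (adjusted p = 0.096), and without scramble replicate 3 it was 0.90 (adjusted p = 0.09). With LPS the groups were separate, at 2.86, 4.33 and 4.92 CPM in scramble and 7.75, 8.50 and 12.1 CPM in KD. There LOXL4 rose by 1.22 on the log2 scale (SE 0.25, adjusted p = 0.0023), a 2.33-fold higher level. Within the oxidase family, counted per kb, LOXL1 went from 20.3% ± 0.793 of the summed mRNA in scramble to 13% ± 1.88 in KD, and LOXL3 from 3.15% ± 0.19 to 5.52% ± 0.682 (SD, n = 3), each with an exact permutation p of 0.1, or 0.19 adjusted.

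Among the lysyl hydroxylases, PLOD2, which hydroxylates the telopeptide lysines used in the most stable cross-links (chr3:146035139-146163725, minus strand), was the one to fall without LPS. It measured 753, 678 and 698 CPM in scramble and 496, 611 and 554 CPM in KD, without overlap, and fell by 0.35 (SE 0.086, adjusted p = 0.0094). With libraries scaled by size only, the adjusted p was 0.062. With LPS the log2 fold change was -0.17 (SE 0.11, adjusted p = 0.29), with 609, 455 and 562 CPM in scramble and 467, 438 and 544 CPM in KD. Without scramble LPS replicate 2 it passed (-0.28, adjusted p = 0.049). PLOD1, which hydroxylates lysines of the triple helix (chr1:11934205-11975538, plus strand) had a log2 fold change of -0.20 (SE 0.077, adjusted p = 0.077) without LPS, at 304, 287 and 295 against 261, 237 and 273 CPM. DESeq2 called it lower there (-0.19, adjusted p = 0.037). With LPS it fell by 0.30 (SE 0.081, adjusted p = 0.015), at 308, 318 and 329 against 233, 280 and 265 CPM. That call was lost without scramble LPS replicate 3 (adjusted p = 0.065), without KD LPS replicate 1 (0.078) and with scaling by size only (0.072). PLOD3, which also adds sugars to hydroxylysine (chr7:101205977-101218420, minus strand), measured 111 to 136 CPM in scramble and 102 to 123 CPM in KD. The log2 fold change was -0.13 (SE 0.096, adjusted p = 0.38). The 3 PLOD mRNAs together summed to 322 to 351 CPM per kb in scramble and 261 to 283 in KD.

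The same question was then asked in LPS-treated cells, where 15981 genes were tested. LOXL3 and LOXL4 rose and LOXL1, PLOD1, PCOLCE and PCOLCE2 fell, against 12.7% and 14.2% of all genes. LOXL4 and PCOLCE2 passed the 2-fold rule, met by 4.58% and 3.90% of all genes. The groups did not overlap for 7 of the 10 genes, against 40.6% of all genes. Of the 4 that did not pass, LOX had a log2 fold change of 0.19 (SE 0.09, adjusted p = 0.15), with levels of 267, 247 and 315 CPM in scramble and 305, 319 and 322 CPM in KD. Without scramble LPS replicate 3, its highest scramble library, LOX passed (0.29, adjusted p = 0.029). LOXL2 stood at 0.10 (SE 0.091) and PLOD3 at -0.20 (SE 0.084, adjusted p = 0.099). The 2 KD comparisons share no libraries.

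**Figure D4:**
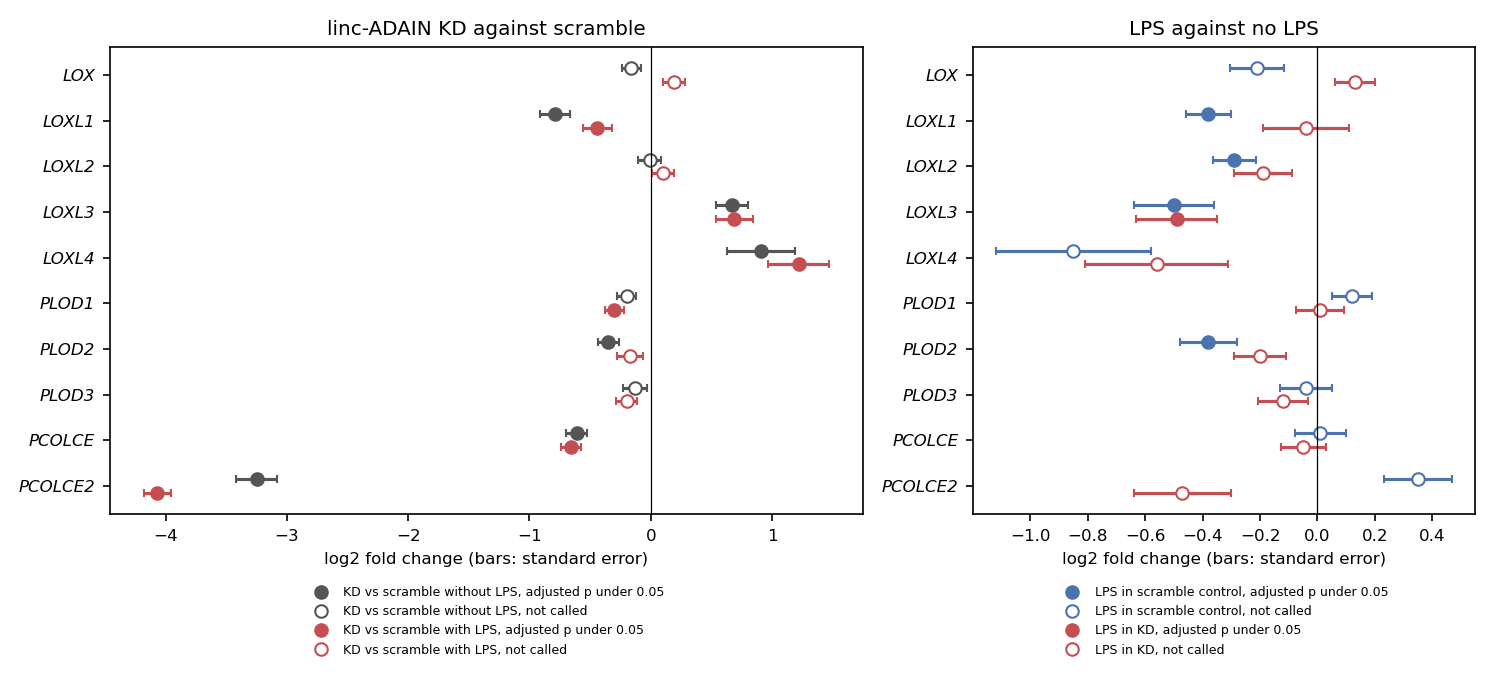
Log2 fold changes (x axis, bars are standard errors) of the 10 genes are plotted for linc-ADAIN KD against scramble (left, without and with LPS) and for LPS against no LPS (right, in scramble and in KD). Filled points passed an adjusted p of 0.05. On the left PCOLCE2 lies at -3.25 and -4.07, and the other 9 genes lie between -0.79 and 1.22. On the right all 10 lie between -0.85 and 0.35.

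The response of these genes to 4 h of LPS was compared next. In scramble libraries LOXL1, LOXL2, LOXL3 and PLOD2 fell and none of the 10 rose, where 8.38% of the 15920 genes tested fell and 5.90% rose. None changed 2-fold. The groups did not overlap for 6 genes, against 32.1% of all genes. LOXL1 went from 77.3 to 82.0 CPM without LPS to 56.2 to 64.8 CPM with LPS and fell by 0.38 (SE 0.079, adjusted p = 0.0075). LOXL2 went from 227 to 239 CPM to 179 to 202 CPM and fell by 0.29 (SE 0.075, adjusted p = 0.025). LOXL3 fell by 0.50 (SE 0.14, adjusted p = 0.029) and PLOD2, from 678 to 753 CPM to 455 to 609 CPM, by 0.38 (SE 0.10, adjusted p = 0.032). The call of LOXL1 held without any 1 library but not in the fit on all 12 libraries (adjusted p = 0.051). Those of LOXL2, LOXL3 and PLOD2 were close to the threshold. Leaving out each of 4 libraries in turn ended that of LOXL2 (adjusted p of 0.057 to 0.089 without replicate 1 or 2 of either group) and that of LOXL3 (0.06 to 0.13, the same libraries). For PLOD2, 5 of the 6 libraries did so (0.063 to 0.11), all but scramble LPS replicate 1. LOXL4 was also lower in all LPS libraries (log2 fold change -0.85, SE 0.27, adjusted p = 0.053), and PCOLCE2 stood at 0.35 (SE 0.12, adjusted p = 0.067). LOXL4 was called lower by DESeq2 (adjusted p = 0.018), with no filter on low counts (0.019), with scaling by size only (0.044) and without scramble replicate 1 (0.022). PCOLCE2 was called higher by DESeq2 (adjusted p = 0.018), with no filter (0.021) and without scramble replicate 3 (0.032). A replicate block in edgeR called both as well (adjusted p = 0.0032 for LOXL4 and 0.0028 for PCOLCE2), and called LOX lower (-0.22, adjusted p = 0.047).

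In linc-ADAIN KD cells, 5.32% of 16169 genes rose and 6.03% fell with LPS. Of the 10, LOXL3 fell by 0.49 (SE 0.14, adjusted p = 0.033), from 24.6 to 36.3 CPM to 19.8 to 23.0 CPM. Its call was lost on leaving out any 1 of the 6 libraries other than KD replicate 1 (adjusted p of 0.069 to 0.14). The groups did not overlap for LOXL3 and, upward, for LOX, 2 of 10 genes against 27.3% of all genes. LOX measured 278 to 304 CPM without and 305 to 322 CPM with LPS, a log2 fold change of 0.13 (SE 0.069, adjusted p = 0.31). PCOLCE2 stood at -0.47 (SE 0.17, adjusted p = 0.11), and PCOLCE at -0.05 (SE 0.078). In edgeR PCOLCE2 passed with no filter on low counts and with a replicate block (adjusted p = 0.049 in each). It also passed without KD replicate 3 (-0.67, adjusted p = 0.0087) and without replicate 3 of both KD groups (-0.64, 0.03). LOXL4 (-0.56, adjusted p = 0.20) passed with a replicate block only (-0.51, 0.042).

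Whether LPS acted differently under the 2 shRNAs was tested as the interaction over all 12 libraries and 17173 genes. At an adjusted p under 0.05, 0.943% of genes had a more positive and 0.332% a more negative LPS effect in KD. By edgeR, 0 of the 10 genes passed an adjusted p of 0.05. The lowest adjusted p-values among the 10 were those of PCOLCE2 and LOX. For PCOLCE2 the difference was -0.81 (SE 0.21, adjusted p = 0.067), and DESeq2 called it (adjusted p = 0.0064), as did edgeR without the filter on low counts (0.0027). Leaving out KD replicate 3 gave -1.02 (adjusted p = 0.0044) and leaving out scramble replicate 3 gave -0.92 (0.037). For LOX it was 0.35 (SE 0.12, adjusted p = 0.20), the LPS effect being -0.21 in scramble and 0.13 in KD. For LOXL3, whose LPS effects were -0.50 and -0.49, the difference was 0.02 (95% interval -0.41 to 0.46).

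The other steps of collagen maturation were described by lists of related genes. Their counts, and those of the hypoxia and marker lists, stand against the shares of all genes tested: 12.1% rose and 15.1% fell in KD without LPS, and 12.7% rose and 14.2% fell with LPS. Of 15 genes for prolyl hydroxylation and procollagen folding, 6 fell and 0 rose in KD without LPS, and 5 fell and 1 rose with LPS. CRTAP, a subunit of the prolyl 3-hydroxylase complex, fell by 0.87 (adjusted p = 1.5e-05), from 840, 877 and 1010 CPM to 524, 487 and 483 CPM. P3H2 fell by 0.79, the prolyl 4-hydroxylase subunit P4HA2 by 0.78 and the chaperone FKBP10 by 0.57, each at an adjusted p of 0.0061 or less. With LPS, CRTAP fell by 1.05, P4HA2 by 0.73 and FKBP10 by 0.66, while P3H3 rose by 0.68. Of the 8 procollagen proteinases, 6 were tested without LPS and 7 with LPS. BMP1, the C-proteinase that PCOLCE proteins enhance, fell by 0.35 without LPS (SE 0.085, adjusted p = 0.0094). With LPS BMP1 did not pass (-0.16, SE 0.11, adjusted p = 0.33). The N-proteinase ADAMTS2 fell by 0.36 without LPS (SE 0.072, adjusted p = 0.0029) and by 0.47 with LPS. The meprin genes MEP1A and MEP1B were at or near 0.

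Of 12 genes for cross-linked substrates and elastic fibre partners, 3 rose and 4 fell without LPS, and 3 rose and 3 fell with LPS. COL11A1, a minor fibrillar chain, went from 2.39, 0.475 and 1.03 CPM in scramble to 17.7, 22.5 and 30.9 CPM in KD and rose by 4.18 on the log2 scale (SE 0.41, adjusted p = 1.5e-05). COL1A1 rose by 0.66 (SE 0.15, adjusted p = 0.0073). Elastin (ELN) fell by 0.81 (SE 0.19, adjusted p = 0.0065) and fibrillin FBN1 by 0.59 (SE 0.076, adjusted p = 0.00012). With LPS the values were 5.30 for COL11A1, 0.77 for COL1A1, -0.77 for ELN and -0.59 for FBN1, all past the threshold. For LPS in scramble, where 5.90% of all genes rose and 8.38% fell, 1 of 15 hydroxylation and folding genes fell, 1 of 6 proteinases rose, and of the 12 substrates 1 rose and 1 fell. For LPS in KD, where 5.32% rose and 6.03% fell, 3 of the 12 substrates rose and 2 fell, and 0 of 15 and 0 of 7 genes of the other lists passed.

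**Figure D5:**
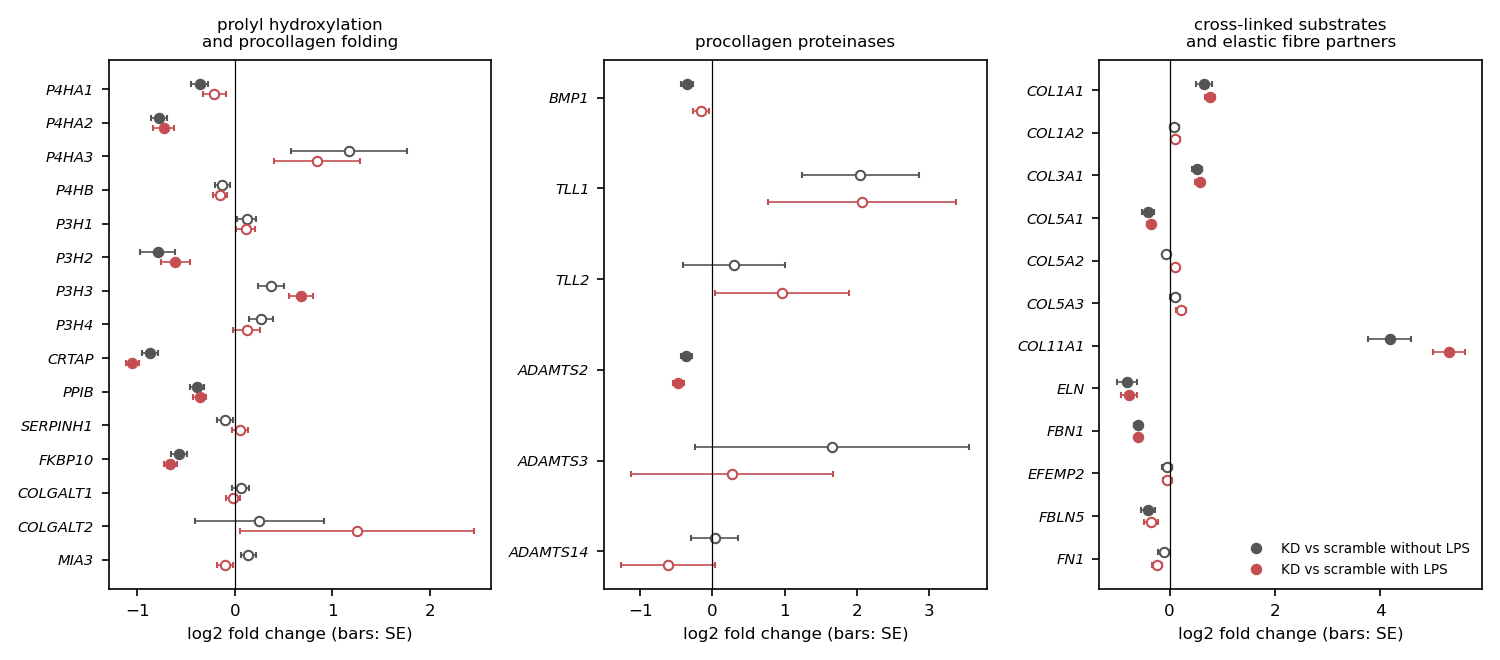
Log2 fold changes (x axis, bars are standard errors) in linc-ADAIN KD against scramble are plotted for the tested genes of 3 related lists, without LPS in grey and with LPS in red, with filled points at an adjusted p under 0.05. CRTAP, P4HA2, P3H2, PPIB and FKBP10 lie below 0 and passed in both comparisons, and COL11A1 lies at 4.18 and 5.30.

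Since LOX and PLOD2 respond to hypoxia, 12 hypoxia-responsive genes were set beside them. Without LPS 10 were tested, and 2 rose and 6 fell in KD. P4HA1 (-0.36, adjusted p = 0.0074), which is also in the prolyl hydroxylation list, is counted among those that fell in both lists. NDRG1 rose by 0.80, while PDK1 fell by 0.64, VEGFA by 0.54 and the glucose transporter SLC2A1 by 0.54, each at an adjusted p of 0.0018 or less. With LPS 3 of 10 tested rose in KD, NDRG1 by 0.89, SLC2A1 by 0.71 and BNIP3 by 0.39, and VEGFA fell by 0.45. The median log2 fold change of the tested genes was -0.363 without LPS and 0.244 with LPS. LPS lowered 5 of 11 in scramble, led by PDK1 (-1.06) and VEGFA (-0.91). In the same comparison PLOD2 fell by 0.38, a call close to the threshold, and LOX did not pass (-0.21, adjusted p = 0.17). In KD, LPS lowered VEGFA (-0.83) and raised SLC2A1 (0.55) and BNIP3 (0.33). There PLOD2 (-0.20, adjusted p = 0.22) and LOX (0.13, adjusted p = 0.31) did not pass. A link between these genes and the list was not tested. The summed level of the 12 was 1300 to 1510 CPM in scramble, 1000 to 1160 with LPS, and 1390 to 1600 and 1280 to 1370 CPM in the KD groups.

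Markers of the cells moved with KD as well. Of 9 adipocyte markers, 6 fell without LPS and 7 with LPS, such as FABP4 (log2 fold changes -1.65 and -2.26). Of 7 stromal and fibroblast markers, 4 fell and 1 rose in each comparison, with THY1 lower by 2.37 and 2.53. Of 6 myofibroblast and mural markers, 4 fell in each, with CNN1 at -2.83 and -1.78, and their sum went from 938 to 1070 CPM to 294 to 369 CPM without LPS. Of 5 leukocyte markers tested, CD68 fell in both comparisons (-0.78 and -1.25) and CD14 rose with LPS (2.69). Of 4 endothelial markers tested, VWF (-2.12 and -2.77) and TEK (-1.79 and -0.80) fell in both, and with LPS PECAM1 fell (-0.72) and KDR rose (4.89). The rises of CD14 and KDR started from few counts. With LPS, CD14 had 9 to 15 counts in scramble and 63 to 89 in KD, and KDR had 2 to 6 and 94 to 120. The part of these shifts in the values of the 10 genes was not tested. Without KD replicate 3, the library with the least adipocyte marker mRNA of those without LPS, PCOLCE2, PCOLCE, LOXL1, LOXL3 and PLOD2 still passed the test without LPS. The KD libraries left still summed to 1830 and 1390 CPM of adipocyte markers, against at least 3140 CPM in scramble. This refit thus keeps the marker difference and cannot separate it from KD.

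Across the 12 libraries, LOXL3 and LOXL4 had the highest Pearson correlation of log2 CPM of any pair among the 10 (r = 0.95), followed by PCOLCE and PCOLCE2 (r = 0.94). LOXL3 and PCOLCE2 ran in opposite directions (r = -0.76). The libraries share 4 groups and 2 treatments, so these values describe group differences as much as variation among libraries. Among the 11811 genes averaging 50 counts or more, those most like LOX were DKK3 (r = 0.89), AFF4, ATP2A2, LAMTOR3 and TBC1D23 (0.83). Those most like LOXL3 were CAPRIN2 and KCNJ15 (both r = 0.95), LOXL4, BCAS4 and ALDH18A1 (0.94). For PCOLCE2, added after its values were seen, they were LXN, EMILIN2, COL4A1, PTGER3 and CRYAB, with r of 0.995 to 0.997. The KD difference of PCOLCE2 dominates these values, so genes chosen this way are lower in KD by their selection.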

How the data were processed

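The 12 libraries were made by the authors with a stranded mRNA kit and sequenced on a NextSeq. Per the labels and methods, reads were demultiplexed with bcl2fastq 2.19 and pseudoaligned with kallisto 0.44.0 to a GRCh38 transcriptome index. The deposited values are estimated counts summed per gene, not normalized for depth or transcript length. The annotation release, and whether counting used strand, are not given in the sources used here. Pseudoalignment shares reads between similar transcripts by estimation, which adds uncertainty to related genes.

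Counts were rounded, 1 row without a gene name (0.235% to 0.306% of a library) was left out, and a gene needed 10 counts over the libraries of a fit to be kept. edgeR 4.0.16 (R 4.3.3) was used with TMM scaling and the quasi-likelihood F test, and p-values were adjusted by Benjamini-Hochberg over all genes tested. The standard error is the log2 fold change divided by the square root of F, and 95% intervals use the t distribution. Each of 4 comparisons used its 6 libraries, and the interaction all 12. Share tests were exact permutation tests (scipy 1.17.1). Positions and transcript lengths came from GENCODE release 44. Alternatives were DESeq2 1.42.0, other scalings and filters, 1 fit to all 12 libraries, a replicate block and leaving out each library. The fits were tested on simulated data. Whether replicate numbers pair the libraries was left unsettled by the correlation of deviations from group means. For LPS in scramble it was 0.041 to 0.234 between same-numbered libraries, against -0.14 to 0.0914 between the others. In KD without LPS it was -0.0977 to -0.0161, against -0.0764 to 0.152. For KD with LPS and for LPS in KD, same-numbered values ran from 0.000826 to 0.157 and from -0.0629 to 0.123. The main fits used no replicate block.

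All 10 genes were named in every comparison. From each list, up to 4 genes per comparison were named, those with the largest absolute log2 fold change among genes with an adjusted p under 0.05 and a mean of at least 50 counts, along with cell type markers at or near 0. The 5 genes most correlated with LOX and with LOXL3, called in the most comparisons, were also named. The genes and lists were chosen with earlier results of these data known.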

Additional observations from a re-analysis of the deposited data

Results flagged for a closer look

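None of the 10 genes met a rule for a closer look. Of the hypoxia-responsive genes set beside them, 2 had an LPS effect that differed between the shRNAs by the interaction test of edgeR. For SLC2A1 the LPS effect was -0.69 in scramble and 0.55 in KD, a difference of 1.25 on the log2 scale (adjusted p = 0.00025). It measured 72.5, 74.9 and 87.2 CPM in scramble, 41.3, 53.8 and 48.8 with LPS, 52.0, 51.1 and 57.5 in KD, and 69.5, 81.0 and 84.3 in KD with LPS. For BNIP3 the LPS effect was -0.43 in scramble and 0.33 in KD, a difference of 0.77 (adjusted p = 0.0088).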

How the results depend on the processing

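Of the 50 log2 fold changes of the 10 genes, 22 kept their direction and side of the threshold in every alternative run. Among them were those of PCOLCE, PCOLCE2 and LOXL3 in both KD comparisons. The 22 also include values that never passed, such as that of LOX in KD without LPS. In at least 1 run, 9 of the 50 changed sign, 9 lost their call and 10 gained one. Depth was 28.4 to 53.8 M counts (units of 1e6) in a library. LOXL4 ranged from 112 to 814 counts and had the lowest count of the 10. With library size only, log2 fold changes moved by 0.105 in the KD comparison without LPS, LOXL2 turned to 0.094 and 2 members passed the 2-fold rule instead of 1. In that setting PCOLCE turned to -0.03 for LPS in scramble, PLOD1 to -0.037 for LPS in KD and LOXL3 to -0.004 for the interaction. In the fit on all 12 libraries, LPS in scramble called 2 members instead of 4, and PCOLCE turned to -0.004. Without the filter on low counts, LPS in KD called 2 members instead of 1, and the interaction 431 genes instead of 219 and 1 member, PCOLCE2. DESeq2 called 475 genes and the same 1 member for the interaction. With a replicate block, though whether the numbers pair the libraries is unsettled, LPS in scramble called 7 members, with 3260 genes called against 2274. LPS in KD called 3 members, with 2238 genes called against 1835. The KD comparisons then called 6 and 7 members, against 6 and 6. Over all genes they called 3857 without LPS, against 4411, and 4636 with LPS, against 4292. The cause of these changes was not tested. Leaving out libraries, which also leaves fewer samples, gave the following ranges. KD without LPS called 3181 to 4167 genes, against 4411, with 5 to 6 members and 1 to 2 past the 2-fold rule. KD with LPS called 3377 to 4033 genes, against 4292, with 4 to 7 members and 2 past 2-fold. LPS in scramble called 1187 to 2106 genes, the fewest without scramble replicate 2, against 2274, with 1 to 4 members and 0 to 1 past 2-fold. LPS in KD called 1179 to 1658 genes, the fewest without replicate 3 of both KD groups (an alternative added after seeing the data), against 1835, with 0 to 1 members. The interaction called 92 to 243 genes and 0 to 1 members, and the fewest without scramble replicate 2. Values near 0 changed sign in these refits: LOXL2 in KD without LPS (-0.133 to 0.048), PLOD3 (-0.116 to 0.033) and PCOLCE (-0.066 to 0.072) for LPS in scramble, LOXL1 (-0.195 to 0.128), PLOD1 (-0.05 to 0.085) and PCOLCE (-0.124 to 0.005) for LPS in KD, and LOXL3 (-0.113 to 0.151), PLOD3 (-0.156 to 0.021) and PCOLCE (-0.125 to 0.036) for the interaction. With the longest transcript instead of MANE Select, PLOD1 and PCOLCE2 exchanged places 3 and 4 per kb in scramble with LPS, and no other rank moved.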

Other observations

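Other genes overlap members in the annotation and were measured. SRFBP1, which overlaps LOX, had a log2 fold change of -0.08 (SE 0.0976, adjusted p = 0.607 by edgeR) in KD without LPS. ZNHIT1, which overlaps PLOD3, stood at 0.29 (SE 0.095, adjusted p = 0.0424). DOK1, beside LOXL3, stood at 0.83 (SE 0.107, adjusted p = 0.000115) and, with LPS, at 0.77 (SE 0.12).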
